A study of Homo sapiens with 32 samples.

Results

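The genes described here are those whose counted region at the 3′ end of the messenger RNA was shorter than 300 bases. They are 1315 of the 8147 genes with a mean of at least 50 reads per library, or 16.1%, and 6077 others with regions of 300 to under 4000 bases served for comparison. For each gene the RefSeq protein-coding transcript on which most of its reads were counted was taken, and the length is that of the region over which its reads were counted. The choice used only the length and the number of reads averaged over all libraries, stressed and auxin-treated ones included. A gene read mainly in those groups, such as FICD or NDUFB3 below, could therefore enter through them. The shortest region had 18 bases and the set had a median of 173 bases, against 1247 bases in the comparison genes, and they took 24.1% to 30.8% of the reads of a library.

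The libraries came from HCT116, an established human colorectal carcinoma line, and record both the amount of each RNA and the part of it made in a short window. Cells were given 4-thiouridine (s4U, 250 µM, 2 h), a uridine analog that is built into RNA during transcription. After alkylation with iodoacetamide, s4U is read as C in place of T, so reads with T-to-C conversions are called labelled (the SLAM-seq method), and the labelled share of a gene is the percent of its reads that were labelled. Every library received s4U, so no share could be set against unlabelled cells. T-to-C differences of another origin therefore cannot be told apart from labelling in the share of a gene. Reads came from 3′ end libraries (QuantSeq), which sample each RNA next to its poly(A) tail. The 8 groups of 4 wells crossed a cell line, a stress and a depletion agent. The parental line carried a doxycycline-inducible OsTIR1 (genotype Tet-OsTIR1-PURO), the plant receptor that sends degron-tagged proteins to the proteasome when auxin is present. The tagged line carried in addition an mAID degron on both endogenous copies of IGF2BP3, an RNA-binding protein of 3′ untranslated regions. All wells, controls included, received doxycycline (200 ng/mL, 24 h). Auxin (indole-3-acetic acid, 500 µM, 9 h) or its vehicle, and tunicamycin (5 µg/mL, 5 h) or its vehicle DMSO, were then combined in each line. Tunicamycin blocks the first step of N-linked glycosylation and so stresses the endoplasmic reticulum (ER). Cells with tunicamycin are called stressed below and those without it unstressed. Nothing in the labels ties a library to a separate passage or clone, so p-values speak only to how wells differ.

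The 3′ untranslated region lies between the stop codon and the poly(A) tail and holds the binding sites of RNA-binding proteins and microRNAs, so a short one offers little room for them. Cleavage before the tail is directed by a hexamer, most often AATAAA or its variant ATTAAA, a short way upstream of the end. Abundant housekeeping messages, above all those of ribosomal proteins and the respiratory chain, are known for short 3′ untranslated regions and for long lives. The unfolded protein response, which tunicamycin sets off, works through the sensors PERK, IRE1 and ATF6. PERK phosphorylates eIF2α, which favours translation of ATF4, and ATF4 with its target CHOP (gene DDIT3) switches on amino acid synthesis and transport, aminoacyl-tRNA synthetases and feedback regulators. ATF6 and XBP1, the factor activated by IRE1, switch on ER chaperones, the translocon and glycosylation enzymes.

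To show how much of a short region the cleavage signal takes, the ends of 4 of them follow, 5′ to 3′ on the strand of the gene, with the signal in capitals. They were read from GENCODE release 29 transcripts (hg38) whose 3′ untranslated region had exactly the counted length and number of T. RPS12 (chr6:132817543-132817564, plus strand) is shown whole, since its region is only 22 bases long. GDF15 (chr19:18389147-18389176, plus strand) and TUBB4B (chr9:137243678-137243707, plus strand) are shown because their read totals moved with the stress, and PRDX2 (chr19:12796820-12796849, minus strand) because its labelled share was among the lowest.
RPS12: agaAATAAAtctttggctcaca
GDF15: ggtgataaaAATAAAgctgtctgaactgtt
TUBB4B: agacaccaccATTAAAgcattttcatagtg
PRDX2: taaccAATAAAgtattagggaaaggtgtga
The signal ended 13, 15, 14 and 19 bases before the last base, in that order. Of the 1315 short regions, 456 could be matched to a GENCODE end in this way. The hexamers were searched in the last 40 bases of the transcript, which run past the region into the coding sequence where it is below 40 bases. AATAAA was found there in 301 (66.0%), ATTAAA alone in 62 (13.6%) and neither in 93. At least one of the hexamers was present in this window for 79.6% of the matched short regions, for 83.5% of the 2074 matched regions of 300 to under 4000 bases and for 83.2% of all 2821 matched regions.

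The libraries held 0.986 M to 6.98 M reads in named genes (in megareads, M), of which 8.86% to 13.4% were labelled. The smallest, replicate 1 of the parental cells with tunicamycin and auxin, stood apart: it had 0.986 M reads against 3.32 M to 3.89 M in the other 3 wells of its group, the lowest labelled percent and the lowest number of T covered per read in short regions, 15.7. Results that rest on it are given with and without it. Epithelial markers EPCAM, KRT8, KRT18, KRT19 and CDH1 were read, while CDH17 and VIL1, also intestinal epithelial markers, were at or near 0 (means of 0.0625 and 0.0312 reads). Of the markers of other cell types, PTPRC, CD3E and COL1A2 were at 0, VWF, PDGFRB and PECAM1 averaged 1.16, 0.438 and 0.188 reads, and COL1A1 had 18.5 to 59.9 CPM (reads scaled to a common library size). IGF2BP3 RNA was at 130 to 236 CPM over all libraries, the highest in the smallest library, and since auxin acts on the tagged protein this does not check the depletion.

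The labelled share was lower in each shorter bin of region length. Pooled over all libraries, the median share was 6.51% for the 276 genes with regions below 100 bases, 8.04% for the 507 with 100 to under 200 bases and 9.88% for the 532 with 200 to under 300 bases. It continued upward to 10.8% at 300 to under 500 bases (887 genes), 13.9% at 500 to under 1000 (1563 genes), 15.8% at 1000 to under 2000 (1905 genes), 17.7% at 2000 to under 4000 (1722 genes) and 18.9% from 4000 bases (755 genes). All short-region genes together had a median of 8.54% (quartiles 5.07% and 14.1%), against 15.0% (9.50% and 22.8%) in the comparison genes. There was no step at the limit of 300 bases: the 282 genes in the last 50 bases inside it had a median of 10.1% and the 275 in the first 50 bases outside it 10.7%. Fewer T were covered per read in the short regions, with a median of 18.8 covered T per read against 24.8, and this moves with the labelled share too. Within strata of covered T the median share of short-region genes was 5.43% against 7.69% at 10 to 15 T per read, 7.61% against 11.4% at 15 to 20, 9.71% against 14.8% at 20 to 25, and 12.6% against 16.9% at 25 to 30. The genes were not matched within a stratum, the medians at 10 to 15 being 12.6 and 13.6 covered T per read. The conversion rate per covered T, which takes the number of T into account, had medians of 0.645% and 1.08%.

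**Figure D1:**
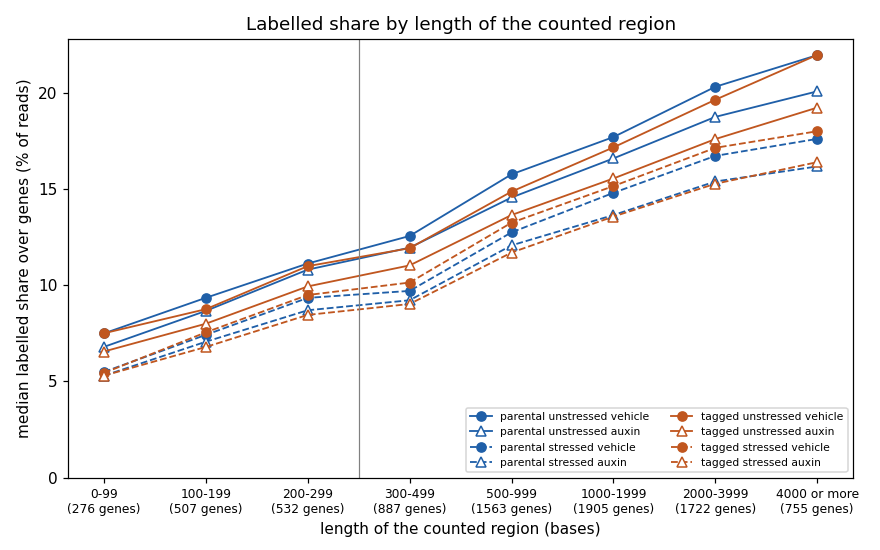
Median labelled share (percent of reads with T-to-C conversions, vertical axis) of genes in 8 bins of counted-region length (horizontal axis, bases), 1 line per group, each line joining medians of 4-well means. The vertical line marks 300 bases. In all 8 groups the bin below 100 bases is the lowest, and pooled over libraries the medians run from 6.51% to 18.9%.

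The conversion counts of the shortest regions were sparse. In 138 of the 276 genes below 100 bases (50%), and in 170 of all 1315 short-region genes (12.9%), the conversions counted at T of the region were fewer than the labelled reads, against 25 of the 6077 comparison genes (0.411%). The median number of conversions per labelled read was 1.00 below 100 bases. How the files decide that a read is labelled is not given in the sources used here. Among the short-region genes, Spearman's correlation of the labelled share was 0.21 with region length, 0.46 with covered T per read and -0.40 with the number of reads. These are descriptions over 1315 genes of the same libraries.

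The lower share of short-region genes was present in each of the 32 libraries. In unstressed vehicle-treated parental cells the median share was 9.41 ± 0.524% for short-region genes and 16.9 ± 0.776% for the comparison genes (mean ± SD, n = 4 wells, as for all group values below). In the tagged line the same condition gave 9.07 ± 0.401% and 16.2 ± 1.06%. On the log2 scale the difference between both medians had a median of -0.85 and ran from -0.98, in the smallest library, to -0.78. The spread of this gap within groups had an SD of 0.0352. Leaving out the 56 cytosolic ribosomal proteins, whose shares were low, the short-region median was 8.76%.

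With tunicamycin the median labelled share of short-region genes was lower in all 4 settings, and so was that of the comparison genes. In parental cells with vehicle the short-region median went from 8.88–10.1% in the unstressed wells to 7.29–8.09% in the stressed wells, a mean change of -1.65 percentage points, and in tagged cells from 8.64–9.52% to 7.14–8.33%, a change of -1.30. With auxin the changes were -2.08 in parental cells (-1.58 without the smallest library) and -1.32 in tagged cells. Stressed and unstressed wells did not overlap in any of the 4 settings. The comparison genes changed by -2.92, -1.87, -3.02 and -2.05 points in the same order. Taken as the log2 gap between both sets, the stress changed it by -0.00, -0.05, -0.08 (-0.05 without the smallest library) and -0.04, with overlapping wells each time. All 4 changes were below 0, though the first ran from -0.015 to 0.004 with single wells left out. Of the 3 larger than the SD of 0.0352 within groups, that in tagged cells with auxin was -0.0354. The changes were not tested. Taken as conversions per covered T, the change with vehicle in parental cells was 0.06, and that in tagged cells was smaller in size than the change of the share gap.

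With auxin the short-region median differed by -0.806 points in unstressed tagged cells, with no overlap between wells, and by -0.825 in stressed tagged cells, where wells overlapped. In parental cells, which have no degron on IGF2BP3, the changes were -0.416 without stress and -0.846 with it (-0.345 without the smallest library), and wells overlapped. The log2 gap to the comparison genes changed by -0.00, 0.01, 0.04 and -0.03 (-0.00 without the smallest library) in that order, all within overlapping wells.

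**Figure D2:**
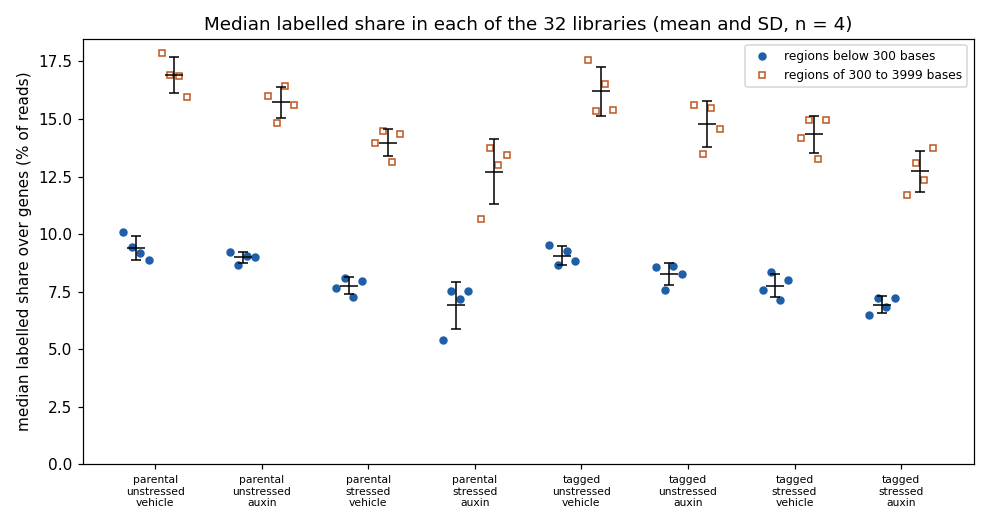
Median labelled share (percent, vertical axis) of short-region genes and of genes with regions of 300 to under 4000 bases in each of the 32 libraries, by group (horizontal axis); points are wells and bars mark the mean and SD of 4. The short-region points lie below the comparison points in 32 of 32 libraries, and both sets are lower in the stressed groups.

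Gene families in the set differed widely in their labelled share. The 56 cytosolic ribosomal proteins, of 76 expressed, had a median region of 56 bases and a median share of 3.85%, from 1.58% to 66.1% (RPS25, with a mean of 127 reads). Their family members with regions of 300 to under 4000 bases had 6.04%. Subunits of oxidative phosphorylation (53 of 78 expressed) had 4.43%, S100 calcium-binding proteins 2.88%, keratins KRT8, KRT18 and KRT19 4.74%, proteasome subunits (15) 5.65%, and mitochondrial ribosomal proteins (31 of 72) 7.99%. At the other end stood RNA polymerase subunits (7) with 17.9%, ER chaperones and folding enzymes (10) with 16.4% and targets of ATF4 and CHOP (13) with 13.4%. For ER chaperones and RNA polymerase subunits the short-region members had a higher median than the family members with regions of 300 to under 4000 bases, which had 14.2% and 13.0%. For the targets of ATF4 and CHOP they had a lower one, the longer members being at 20.6%, as for oxidative phosphorylation, the proteasome, mitochondrial ribosomes and S100 proteins, with longer members at 6.42%, 9.49%, 10.3% and 5.86%.

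Single genes ranged much further. Among the 386 short-region genes with a mean of at least 500 reads, the highest shares in unstressed vehicle-treated parental cells were those of DDX39B, an RNA helicase of splicing and export, at 74.8 ± 2.41%, DDIT3 at 59.4 ± 2.53%, PFN1, the actin monomer binder profilin, at 50.3 ± 2.65%, AREG, a ligand of the EGF receptor, at 48.4 ± 5.09%, and TAF1D, a subunit of the RNA polymerase I selectivity factor, at 47.3 ± 3.48%. The lowest were NDUFA13, a complex I subunit, at 1.35 ± 0.583%, the neuropeptide precursor NPW at 1.47 ± 1.04%, the peroxiredoxin PRDX2 at 1.63 ± 0.762%, S100A6 at 1.95 ± 0.228% and the galectin LGALS1 at 1.96 ± 0.469%. Without unlabelled cells, how much of the highest and lowest shares is labelling was not tested. The most read members were RPS24 (20699 reads per library on average, pooled share 2.3%), the glycolytic enzyme GAPDH (18177 reads, 1.69%) and RPLP1 (15615 reads, 2.74%, region of 38 bases). RPS12, whose whole region is printed above, had 8197 reads and a share of 2.84%.

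Tunicamycin raised the read totals of DDIT3 and of most other short-region genes of the ATF4 and CHOP branch. Totals were compared with edgeR over all genes, and a gene passed when its adjusted p was below 0.05; log2 fold changes are given with their standard errors. In parental cells with vehicle, 66 short-region genes rose and 70 fell of 1312 tested (10.4%), where 12.9% of all 11167 genes passed, 7.66% higher and 5.27% lower. In tagged cells 23 rose and 10 fell (2.52%), where 4.03% of all genes passed, 2.93% higher and 1.1% lower. Genes with regions of 300 to under 4000 bases passed at 15.5% and 5.15%. Of the calls, 123 of 136 (90.4%) and 33 of 33 (100%) showed no overlap between the stressed and the unstressed wells, against 86.8% and 97.8% of the calls over all genes. The median log2 change of the short-region genes was -0.12 in parental and -0.00 in tagged cells, against -0.01 for all genes in both. In such bulk libraries fewer cells of a kind and less RNA per cell cannot be told apart. These counts moved with single libraries: in parental cells they were 475 without the smallest library (which is in neither group but shares the estimate of the spread), 48, 67, 56 and 79 without stressed vehicle replicate 2 and unstressed vehicle replicates 1, 2 and 4, 225 without unstressed vehicle replicate 3, and 266 with only the compared libraries; in tagged cells the count was 80 without the smallest library and 77 with only the compared libraries. With only the compared libraries 20.2% and 7.37% of all genes passed in parental and tagged cells. For the fits without 1 library the share over all genes is not given, so those counts describe no trait of short-region genes.

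DDIT3 (NM_001195053.1, chr12:57516588-57520517, GRCh38.p14 as for all gene positions below, region of 221 bases), which encodes CHOP, the factor that carries prolonged PERK signalling towards cell death, rose the most of all short-region genes in both lines with vehicle. It had 27.7, 24.5, 21.6 and 27.1 CPM in the 4 unstressed parental wells and 887, 894, 764 and 919.6 in the 4 stressed ones. In tagged cells it had 19.6, 26.9, 20.8 and 23.2 CPM without and 793, 929, 722 and 939.9 with tunicamycin. The stressed wells lay far above the unstressed ones in both lines, with log2 changes of 5.10 ± 0.21 and 5.22 ± 0.21 (edgeR adjusted p = 9.28e-18 and 7.18e-18). With auxin the changes were 5.25 ± 0.21 and 5.30 ± 0.21, and the smallest library, at 497 CPM, was the lowest of the stressed parental wells with auxin, the others being at 941 to 973.

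ATF4 (NM_001675.3, chr22:39520559-39522686, region of 84 bases), the factor upstream of CHOP, rose less. Its parental wells had 908, 1155, 690.5 and 916 CPM without and 1983, 1510.2, 1841 and 1984 with tunicamycin. Tagged wells had 698, 707, 685 and 821 and 1849, 2097, 1606 and 2288 CPM. Groups did not overlap in either line, and the log2 changes were 1.00 ± 0.17 and 1.43 ± 0.17 (edgeR adjusted p = 0.000116 and 5.56e-07).

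GDF15 (NM_004864.2, chr19:18386158-18389176, region of 241 bases, its end printed above), a secreted stress hormone of the TGF-beta family, had 104, 101, 94.6 and 81 CPM in unstressed and 352, 417, 365 and 430.0 in stressed parental wells. In tagged cells the values were 124, 133, 123 and 118 and 370.5, 523, 355 and 460.1. All stressed wells were above all unstressed wells, with log2 changes of 2.04 ± 0.16 and 1.78 ± 0.16 (edgeR adjusted p = 9.61e-11 and 2.27e-09).

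PPP1R15A (NM_014330.3, chr19:48872421-48876058, region of 89 bases), known as GADD34, directs the phosphatase that removes the mark set by PERK. It had 32.8, 27.7, 26.3 and 25.1 CPM in unstressed and 123, 114, 110.2 and 110.3 in stressed parental wells, and 31.3, 34.7, 31.5 and 34.5 and 111, 111, 100.04 and 98.7 in tagged wells. The groups were well apart, with log2 changes of 2.03 ± 0.22 and 1.67 ± 0.22 (edgeR adjusted p = 4.35e-08 and 2.33e-06). With auxin, stressed parental wells had 24.2, 113, 117 and 117 CPM, and the first of them, the smallest library, lay among the unstressed values.

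The ATF4 and CHOP list of 13 short-region genes rose with few exceptions. In parental cells 12 of 13 rose and none fell (median log2 change 1.00), and in tagged cells 10 rose and none fell (median 1.02); with auxin 11 and 10 rose and none fell (medians 1.32 and 1.04), with 6 in parental cells when only the compared libraries were fitted. Without the smallest library the counts were 13, 12, 12 and 12. Beside the genes above, PCK2, the mitochondrial PEP carboxykinase, changed by 2.02 ± 0.21 and 1.81 ± 0.22 in parental and tagged cells, ASNS, the asparagine synthetase, by 1.44 and 1.30, and SLC3A2, the heavy chain of the amino acid antiporter, by 1.19 and 0.95. The tRNA synthetases GARS1 and EPRS1 rose by 0.77 and 0.94 in parental cells, and PHGDH, the first enzyme of serine synthesis, by 0.52. The list was drawn from general knowledge of the pathway with earlier results of these data known, so its direction is no independent evidence.

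Of the 10 short-region ER chaperones and folding enzymes, 7 rose in parental and 5 in tagged cells and none fell (medians 1.37 and 0.92), and 5 rose in each line with auxin (8, 8, 6 and 7 without the smallest library, and 3 in parental cells with auxin when only the compared libraries were fitted). SDF2L1, a partner of ER chaperones, was at 236 ± 55.4 CPM in unstressed and 918 ± 134 in stressed parental wells and at 233 ± 26.4 and 1149 ± 224 in tagged wells, log2 changes of 1.96 ± 0.31 and 2.30 ± 0.31. CRELD2, an ER-resident stress protein, changed by 1.48 ± 0.13 and 1.70 ± 0.13 (edgeR adjusted p = 4.10e-10 and 3.00e-11), and FICD, which adds and removes AMP on the chaperone BiP, by 2.74 ± 0.33 and 2.60 ± 0.33 from means of only 4.76 ± 1.52 and 6.54 ± 1.38 CPM. ZNF165, a zinc-finger gene outside the lists, rose by 2.93 ± 0.25 and 2.18 ± 0.25. AREG rose by 2.64 ± 0.46 in parental cells (edgeR adjusted p = 0.000167).

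HSP90B1 (NM_003299.2, chr12:103930410-103947926, region of 268 bases), the ER form of HSP90, was read unevenly. Unstressed parental wells had 96.6, 44.4, 257 and 132 CPM and stressed ones 578, 1078, 633 and 594. In tagged wells the values were 202, 218, 218 and 127 and 467, 404, 681 and 290.4. Stressed wells were higher without overlap in both lines, and the wells of a group lay far apart, above all the unstressed parental ones. The log2 change was 2.44 ± 0.45 in parental cells (edgeR adjusted p = 0.000387) and did not pass in tagged cells, at 1.27 ± 0.43 (edgeR adjusted p = 0.111). With auxin it was 0.59 and 1.09 and did not pass (edgeR adjusted p = 0.387 and 0.194).

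A known motif of the ATF6 branch was looked for in the promoters. The ER stress element, searched as CCAAT and CCACG with 9 bases between them on both strands of the RefSeq promoters (GRCh38.p14, 250 bases before to 50 after the gene start), was found in 22 of 27305 promoters (0.0806%), in 12 of the 6828 promoters of genes with a mean of at least 50 reads (0.176%), in 3 of the 1112 short-region genes with a promoter in the table (0.27%) and in 3 of the 10 short-region ER chaperones (30%). The 3 matches are shown because all 3 genes rose in parental cells, with the fixed letters in capitals.
HSP90B1 (chr12:103930216-103930234, plus strand): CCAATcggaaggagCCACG
CRELD2 (chr22:49918554-49918572, minus strand): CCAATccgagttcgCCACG
FICD (chr12:108515123-108515141, plus strand): CCAATgggagtggcCCACG
The amino acid response element, searched as TGATGNAAN on both strands, was found in 1002 promoters (3.67%), in 105 of those of genes with a mean of at least 50 reads (1.54%), in 18 short-region genes (1.62%) and in 4 of the 13 short-region ATF4 and CHOP targets (30.8%), which were ASNS, SLC3A2, CARS1 and MARS1. The ER stress element was also found in the promoters of CALR, CANX and HSPA5, whose regions are not short. Motifs and lists both come from earlier knowledge of these branches, so the higher percents within the lists are no independent evidence. A match describes the letters of the promoter and nothing about binding.

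Among the falls, BMP4 (NM_001202.3, chr14:53949736-53956891, region of 296 bases), a bone morphogenetic protein, changed the most in both lines. Unstressed parental wells had 213, 264, 167 and 186 CPM and stressed ones 95.4, 63.6, 109 and 88.4, and tagged wells had 154, 142, 137 and 169.6 and 76.4, 58.8, 71.2 and 78.4. The stressed wells were all lower, with log2 changes of -1.22 ± 0.24 and -1.08 ± 0.24 (edgeR adjusted p = 0.00062 and 0.00456). With auxin BMP4 also fell in both lines, with log2 changes of -0.93 and -0.92, the latter call being lost (edgeR adjusted p = 0.0606 to 0.116) without tagged stressed replicate 2 or 4 or tagged unstressed replicate 1 or 4.

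TUBB4B (NM_006088.5, chr9:137241287-137243707, region of 151 bases, its end printed above), a beta-tubulin, had 1049, 1461, 963 and 1164 CPM in unstressed and 619.8, 434, 609 and 542 in stressed parental wells. Tagged wells had 1106, 992, 1025 and 1240.3 and 719.6, 621, 705 and 761 CPM. The stressed wells were lower in both lines without overlap. The log2 change passed in parental cells at -1.07 ± 0.23 (edgeR adjusted p = 0.00194) and not in tagged cells at -0.64 ± 0.23 (edgeR adjusted p = 0.137). With auxin the smallest library had 1557 CPM in stressed parental cells against 413 to 614.5 in the other 3.

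SLC61A1, a molybdate transporter gene, fell in all 4 stress settings, with log2 changes of -0.86 ± 0.13 and -0.70 ± 0.13 with vehicle. GEMIN6, a part of the SMN complex that assembles spliceosomal particles, changed by -0.85 ± 0.17 in tagged cells, and FHOD1, a formin, by -0.87 ± 0.16 in parental cells. HPS6, a subunit of a complex for lysosome-related organelles, changed by -0.95 ± 0.21 in tagged cells. BLOC1S1, the classic message cut by IRE1 and 1 of 3 short-region genes of that kind, changed by -0.47 ± 0.15 in parental cells (edgeR adjusted p = 0.0414), a call lost with only the compared libraries and without any of 6 of the 8 wells compared (all but stressed replicates 1 and 3; edgeR adjusted p = 0.0522 to 0.215), and had -0.24 ± 0.16 in tagged cells (edgeR adjusted p = 0.605).

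**Figure D3:**
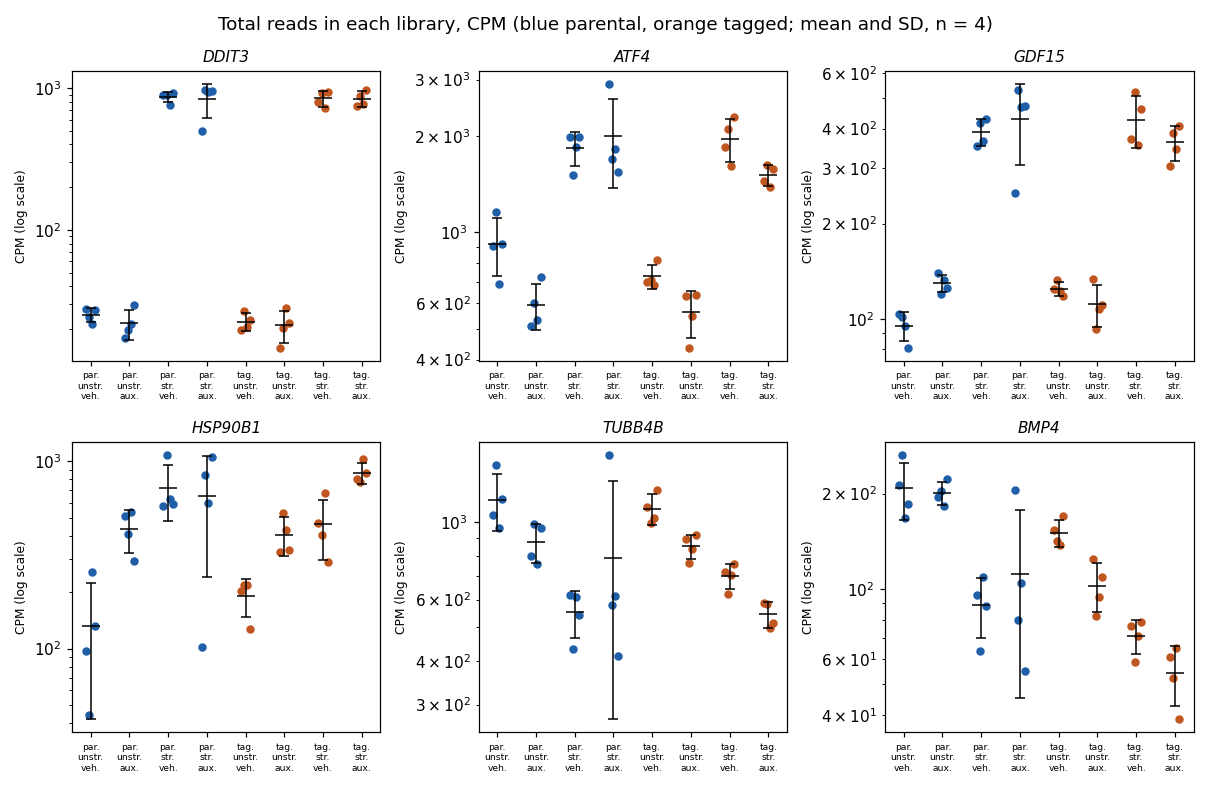
Read totals (CPM, logarithmic vertical axis) of DDIT3, ATF4, GDF15, HSP90B1, TUBB4B and BMP4 in each library, by group (horizontal axis). Parental wells are blue and tagged wells orange, with the mean and SD of 4 wells; DDIT3 goes from at most 27.7 CPM to at least 722.5 CPM with tunicamycin and vehicle, while BMP4 goes down.

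With auxin in both arms the stress comparison gave 124 short-region genes higher and 31 lower in parental cells (11.8%), where 10.4% of all genes passed (7.2% higher, 3.19% lower). In tagged cells 30 rose and 10 fell (3.05%), where 4.14% passed (3.02% higher, 1.12% lower). Genes of 300 to under 4000 bases passed at 12% and 5.17%. The parental count rested on its libraries: it was 101 without the smallest library, 267, 238 and 342 without stressed replicates 2, 3 and 4, 87, 86 and 83 without unstressed replicates 1, 2 and 3, and 12 when only the compared libraries were fitted. The tagged count was 98 without the smallest library and 108 with only the compared libraries. With only the compared libraries 1.09% and 8.99% of all genes passed in parental and tagged cells. The share over all genes is not given for the fits without 1 library. FICD rose by 3.40 and 2.87 on the log2 scale and SDF2L1 by 3.22 and 2.52.

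The 4 stress comparisons share no library, and 19 short-region genes rose in all of them: ASNS, ATF4, CARS1, CCNO, CRELD2, DDIT3, FICD, FKBP2, GARS1, GDF15, NANS, PCK2, PHGDH, PPP1R15A, SDF2L1, SEC11C, SLC3A2, ZFAND2A and ZNF165. The genes that fell in all 4 were BMP4, GEMIN6 and SLC61A1. These are 1.45% and 0.229% of the 1312 tested, where 2.04% and 0.376% of all 11167 genes rose and fell in all 4. With vehicle, 27 genes were called in both lines, 19.9% of the parental and 81.8% of the tagged calls, all in the same direction. With auxin 33 were called in both, 21.3% and 82.5%, again all in the same direction. Over all genes the shares of calls common to both lines were 25.3% and 81.1% with vehicle and 32.4% and 81.4% with auxin. The difference in stress response between both lines with vehicle was tested directly and passed for 0 short-region genes (edgeR; 83 at an unadjusted p below 0.05, DESeq2 0), where 0% of all genes passed. The count turned on the fit: with the main axis of variation among wells of a group (the first principal component of differences within groups) as a covariate in edgeR, 148 short-region genes passed, 54 higher and 94 lower in tagged cells, where 7.38% of all genes passed. This axis was drawn from the same totals, so the fit removes variation among wells by construction and is no independent check.

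HSPA8 (NM_006597.5, chr11:123057489-123062462, region of 242 bases), the constitutive cytosolic HSP70, fell under stress where auxin was present. Unstressed wells with auxin had 239, 198, 277 and 145 CPM in parental and 194, 552, 319 and 223 in tagged cells. Stressed wells with auxin had 6.38, 47.3, 29.5 and 61.4 and 73.1, 53.1, 73.3 and 54.3. No stressed well reached an unstressed one, and the log2 changes were -2.44 ± 0.64 and -2.35 ± 0.62 (edgeR adjusted p = 0.0134 and 0.0233). The unstressed vehicle-treated wells ranged from 8.35 to 149.7 CPM in parental cells and 24.5 to 144 in tagged cells, and with vehicle no change passed (-0.07 and -1.55; edgeR adjusted p = 0.96 and 0.251). The parental call was lost with only the compared libraries (edgeR adjusted p = 0.0544) and the tagged call when any tagged stressed replicate or tagged unstressed replicate 2 was left out (edgeR adjusted p = 0.0524 to 0.105).

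Under stress with vehicle most short-region ER chaperones and translocon genes had a higher labelled share relative to the typical gene, while the calls among proteasome subunits were all lower ones, in 6 of 15 in parental and 4 of 15 in tagged cells. The share was compared with edgeR on labelled against other reads within each library, as a change relative to the typical gene, since the share of all genes fell under stress. In parental cells with vehicle 72 short-region genes had a higher and 56 a lower relative share (10.7% of 1198 tested), where 8.21% of all 8951 genes passed (4.84% higher, 3.37% lower). In tagged cells 81 were higher and 27 lower (9.02%), where 7.09% passed (5.08% higher, 2.01% lower). With auxin the counts were 80 and 48 in parental cells (10.7%, with 8.03% of all genes: 5.35% higher, 2.68% lower) and 74 and 40 in tagged cells (9.52%, with 7.12%: 5.07% higher, 2.04% lower). The comparison genes of 300 to under 4000 bases passed at 9.12%, 7.73%, 8.79% and 7.90%. Without centring on the typical gene the median of all genes was -0.40, -0.28, -0.38 and -0.31 on the log2 scale, and the higher and lower calls among short-region genes became 37 and 294, 43 and 128, 37 and 221, and 36 and 157. Over all 8951 genes these calls became 210 and 1771, 247 and 740, 194 and 1319, and 210 and 890. The directions below are therefore relative to that downward shift of the median. Of the relative calls, 94, 62, 77 and 75 in the same order had no overlap between wells (73.4%, 57.4%, 60.2% and 65.8%), against 69.1%, 64.1%, 54.0% and 62.6% of the calls over all genes.

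Short-region ER chaperones had a median share of 9.38% in unstressed and 20.1% in stressed parental cells, and of 8.39% and 21.4% in tagged cells. The relative share was higher for 7 of the 10 in each line with vehicle, for 7 in parental and 5 in tagged cells with auxin, and lower for none (medians 1.34, 1.17, 1.19 and 1.33); without centring 6, 5, 6 and 5 passed as higher.

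NUCB2 (NM_005013.2, chr11:17276739-17349980, region of 104 bases), the nucleobindin precursor of nesfatin, showed the largest rise in both lines with vehicle. Its share was 1.72, 0, 1.89 and 2.8% in unstressed and 18.1, 18.9, 19.3 and 20.5% in stressed parental wells. The 0 stands for 0 of 64 reads, which allows a share of up to 4.69% for counting error alone. In tagged cells it was 7.55, 2.9, 3.12 and 2.74% and 19.8, 36.1, 17.1 and 19.1%. Stressed and unstressed wells were far apart in both lines, and the log2 change of the labelled-to-other ratio was 4.00 ± 0.52 and 3.10 ± 0.49 (edgeR adjusted p = 1.39e-09 and 6.56e-07).

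HSP90B1 had a share of 12.9, 8.05, 8.31 and 8.49% in unstressed and 21.1, 20.1, 22.1 and 22.5% in stressed parental wells. Tagged wells had 9.89, 7.22, 7.91 and 7.9% and 24, 23.4, 21.1 and 23.6%. The stressed wells were all higher, with log2 changes of 1.76 ± 0.15 and 2.01 ± 0.14 (edgeR adjusted p = 6.55e-19 and 5.73e-23). With auxin the changes were 2.24 and 2.24. SDF2L1 went from 6.98 ± 1.19% to 18.8 ± 0.763% in parental cells (1.94 ± 0.12, edgeR adjusted p = 9.94e-27) and changed by 2.41 ± 0.13 in tagged cells. CRELD2 changed by 1.81 ± 0.16 and 2.11 ± 0.17, the ER prolyl isomerase PPIB by 1.73 ± 0.24 and 1.62 ± 0.24, and the disulfide isomerase PDIA5 by 1.71 ± 0.31 in parental cells.

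All 7 short-region genes of the translocon, signal peptidase and vesicle transport had a higher relative share in tagged cells and 5 of them in parental cells (medians 1.48 and 1.28), with 5 and 6 in tagged and parental cells with auxin, while their totals rose for only 1 and 3 with vehicle. Without centring the higher shares were 4 in parental and 5 in tagged cells. SEC61B (NM_006808.2, chr9:99222282-99230615, region of 195 bases), the beta subunit of the translocon, had shares of 12.4, 10.5, 7.79 and 7.1% in unstressed and 17.1, 17.8, 16.9 and 21% in stressed parental wells. In tagged cells they were 6.94, 6.86, 7.87 and 4.23% and 17.5, 27.4, 13.6 and 25.2%. No wells overlapped in either line, and the log2 changes were 1.52 ± 0.19 and 2.16 ± 0.22 (edgeR adjusted p = 2.32e-10 and 2.04e-14). SEC61G changed by 1.28 and 2.02, SEC11C, a signal peptidase subunit, by 1.92 and 1.62, and SSR4, a translocon-associated protein, by 1.66 and 1.05. The calls of TRAPPC4 in both lines and of SSR4 in tagged cells were lost without centring, and that of SSR4 also without tagged stressed or unstressed replicate 4 (edgeR adjusted p = 0.0535 and 0.0555).

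Fewer genes passed for N-glycosylation, the step that tunicamycin blocks. Of its 10 short-region genes none rose in total reads and 1 fell in parental cells (3 and 3 without the smallest library), TMEM258 (-0.37 ± 0.11, edgeR adjusted p = 0.0213, or 0.0596 to 0.127 without stressed replicate 2 or unstressed replicate 1 or 2). The relative labelled share was higher for 3 in parental and 4 in tagged cells with vehicle, and for 4 in each line with auxin (2 in parental cells without the smallest library). DAD1, a subunit of the oligosaccharyltransferase, was at 198 ± 24.2 CPM in unstressed and 202 ± 7.0 in stressed parental cells, while its share went from 6.0 ± 0.794% to 12.1 ± 1.54% (1.45 ± 0.17, and 1.30 ± 0.18 in tagged cells). TMEM258, another subunit, had share changes of 1.10 and 1.24, and ALG5, which makes the glucose donor, of 0.84 and 1.19. GMPPA, a subunit of the enzyme complex that makes GDP-mannose, changed by 1.70 ± 0.33 and 2.28 ± 0.40.

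Within the ATF4 and CHOP list the shares went both ways. The relative share was higher for 8 and lower for 3 in parental cells and higher for 9 and lower for 3 in tagged cells (with auxin 6 and 3, and 7 and 4); without centring these splits were 6 and 4, 7 and 3, 4 and 4, and 4 and 4. ASNS (NM_001178075.1, chr7:97851677-97928441, region of 142 bases) was among the higher ones: 6.01, 5.3, 4.47 and 2.36% in unstressed and 14, 14.4, 11.1 and 14.5% in stressed parental wells. Tagged wells had 5.95, 4.12, 3.85 and 3.45% and 10.4, 11.7, 13.3 and 14.4%. The wells did not overlap in either line, and the log2 changes were 2.08 ± 0.20 and 1.94 ± 0.21 (edgeR adjusted p = 3.75e-15 and 3.06e-13). The synthetases GARS1 and SARS1 changed by 1.27 and 1.45 in parental cells and PHGDH by 1.44. PCK2 rose by 2.70 ± 0.48 in tagged cells. The calls of EPRS1 and GDF15 as higher were lost without centring.

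ATF4, PPP1R15A and SLC3A2 had the lower shares, although their totals rose. ATF4 went from 35.2, 31.5, 33.4 and 31.3% to 20.4, 18.7, 18.6 and 20.2% in parental wells and from 37.6, 32.1, 35.8 and 31.4% to 19.8, 21.7, 21.2 and 21.7% in tagged wells. All stressed wells were lower, and the log2 changes were -0.68 ± 0.08 and -0.69 ± 0.09 (edgeR adjusted p = 1.03e-10 and 1.44e-10). PPP1R15A had 75.7, 78.5, 73.9 and 72.8% in unstressed and 50.5, 44.6, 51.7 and 53% in stressed parental wells, and 66.3, 75.5, 71.1 and 73.3% and 57.8, 57.7, 43.8 and 59.4% in tagged wells. Its shares were high in both states and did not overlap between them, and it changed by -1.26 ± 0.22 and -0.82 ± 0.22 (edgeR adjusted p = 4.91e-06 and 0.00796). The tagged call was lost without tagged stressed replicate 3 or tagged unstressed replicate 2 or 4 (edgeR adjusted p = 0.0643 to 0.0723). SLC3A2 differed likewise, going from 30.8 ± 2.25% to 18 ± 1.01% in parental cells.

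Of the 15 short-region subunits of the proteasome, 6 had a lower relative share in parental cells (PSMB3, PSMB6, PSMD2, PSMA7, PSMC3 and PSMB4) and 4 in tagged cells (PSMD2, PSMB4, PSMB6 and PSMB7), none was higher, and the medians were -0.37 and -0.31. With auxin 4 were lower and 1 higher in parental cells (3 and 0 without the smallest library) and 5 lower in tagged cells. Without centring 12, 8, 11 and 11 were lower and none higher. The median share of these subunits went from 6.98% to 4.87% in parental and from 7.24% to 4.92% in tagged cells, while totals fell for 1 of them in parental cells with vehicle (7 without the smallest library) and for none in tagged cells. PSMD2 (NM_001278708.1, chr3:184299241-184309050, region of 164 bases), a base subunit of the regulatory particle, had shares of 7.88, 5.51, 6.2 and 6.84% and 2.99, 4.38, 2.84 and 4.62% in unstressed and stressed parental wells. In tagged wells they were 8.2, 8.78, 5.34 and 6.32% and 3.22, 4.34, 3.82 and 3.81%. The stressed wells were all lower, with log2 changes of -0.52 ± 0.17 and -0.70 ± 0.18 (edgeR adjusted p = 0.0348 and 0.0043, the latter 0.063 without tagged unstressed replicate 2). Other falls in both lines were those of CKB, the brain-type creatine kinase, from 4.98 ± 1.16% to 2.14 ± 0.399% in tagged cells (-1.0 ± 0.17, edgeR adjusted p = 7.05e-06), and NOP56, a core protein of box C/D particles, from 18.7 ± 2.22% to 10.3 ± 0.688% (-0.72 ± 0.13, edgeR adjusted p = 6.24e-06). SURF2 fell from 12.1 ± 2.46% to 3.01 ± 1.2% in parental cells (-1.82 ± 0.38).

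Oxidative phosphorylation had more lower than higher shares in parental cells with vehicle, 9 against 4 of 53 genes (median -0.14), and not in the other settings, with 1 and 1 in tagged cells, 1 lower and 3 higher in parental cells with auxin and 2 lower and 8 higher in tagged cells with auxin; differences between these settings were not tested for the list. Without centring the lower calls outnumbered the higher ones in all 4 settings, with 20 and 1, 8 and 1, 8 and 1, and 7 and 2. Of the 56 cytosolic ribosomal proteins 3 were higher and 0 lower, then 3 and 2, 2 and 2, and 3 and 1. Without centring 40, 16, 31 and 25 of them were lower. Relative to the typical gene 8.21%, 7.09%, 8.03% and 7.12% of all genes passed in the same order. In parental cells with vehicle 4.84% of all genes were higher and 3.37% lower. Without centring 1771, 740, 1319 and 890 of all 8951 genes were lower. S100A11 and S100A6 had higher relative shares in both lines (1.26 and 1.01, 0.62 and 0.46), as did the metallothionein MT2A (0.75 and 0.83); the calls of S100A6 were lost without centring (edgeR adjusted p = 0.0814 and 0.356).

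In the 4 stress comparisons 38 short-region genes had a higher relative share in all and 7 a lower one in all, these being ATF4, CKB, H4C3, NOP56, PPP1R15A, PSMB6 and SLC3A2. They make up 3.17% and 0.584% of the 1198 tested, where 2.56% and 0.246% of all 8951 genes were higher and lower in all 4. With vehicle 67 calls were common to both lines, 52.3% of the parental and 62.0% of the tagged ones, all in the same direction. With auxin the common calls were 65, or 50.8% and 57.0%. Over all genes they were 49.5% and 57.3% with vehicle and 52.3% and 59.0% with auxin. The difference in stress response between the lines with vehicle passed for 0 short-region genes (edgeR; 76 at an unadjusted p below 0.05), where 0% of all genes passed, and for 1 without parental unstressed vehicle replicate 3. On simulated libraries the test of shares recovered 42.7% of changes of 1 and 94.1% of changes of 2 on the log2 scale for the parental stress comparison over 8691 genes, so shares that moved by 1 or less would often be missed.

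**Figure D4:**
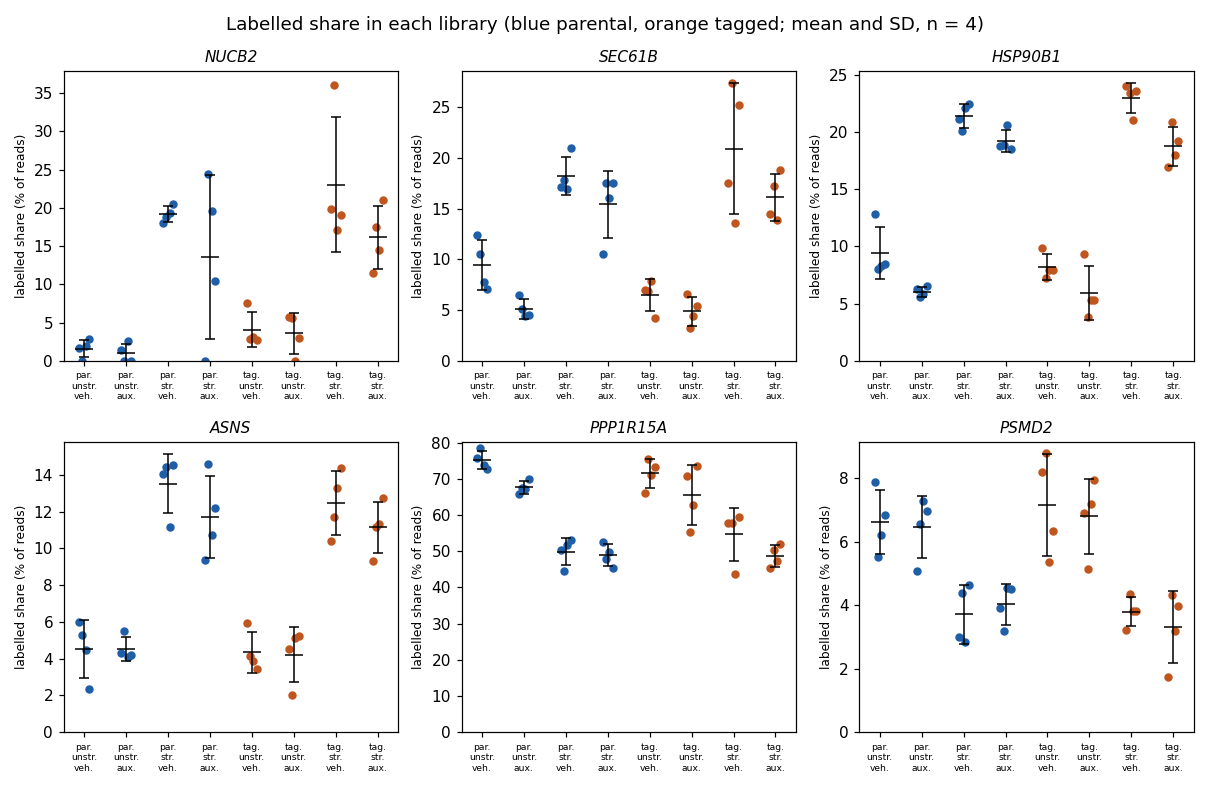
Labelled share (percent of reads, vertical axis) of NUCB2, SEC61B, HSP90B1, ASNS, PPP1R15A and PSMD2 in each library, by group (horizontal axis), with the mean and SD of 4 wells; blue is parental and orange tagged. NUCB2, SEC61B, HSP90B1 and ASNS are higher with tunicamycin in both lines, PPP1R15A and PSMD2 lower.

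With auxin the totals of short-region genes lay lower against the comparison genes, in the line without the degron as well as in the tagged line. The gap in total reads, the median of log2(CPM + 0.5) of short-region genes minus that of comparison genes after centring each gene on its mean over libraries, was 0.12 ± 0.08 in unstressed vehicle-treated and -0.08 ± 0.06 in auxin-treated parental cells, and 0.07 ± 0.05 and -0.10 ± 0.10 in tagged cells. The 4 wells of these parental groups were at 0.16, 0.18, 0.01 and 0.11 with vehicle and at -0.12, -0.06, -0.15 and -0.00 with auxin. The changes of -0.20 in unstressed parental, -0.17 in unstressed tagged and -0.12 in stressed tagged cells were without overlap between wells. In stressed parental cells the change was -0.01 (-0.05 without the smallest library) and wells overlapped. The number of T covered per read in the comparison genes was higher with auxin too (without overlap between wells in unstressed tagged cells), from 23.7 to 25.4 in unstressed parental, 24.2 to 25.5 in unstressed tagged and 24.1 to 25.1 in stressed tagged cells, while that of short-region genes went from 18.8 to 19.0, 18.8 to 18.7 and 18.8 to 18.7; the part of this in the totals was not tested. Among wells of a group the gap also moved with the main axis of variation in total reads, which held 37% of that variation. Without the smallest library, Spearman's correlation of gap and axis was -0.97 and Pearson's -0.94 over 31 libraries, each taken as a difference from its group mean; this is a description, since both come from the same totals, and the axis is centred within groups by construction.

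**Figure D5:**
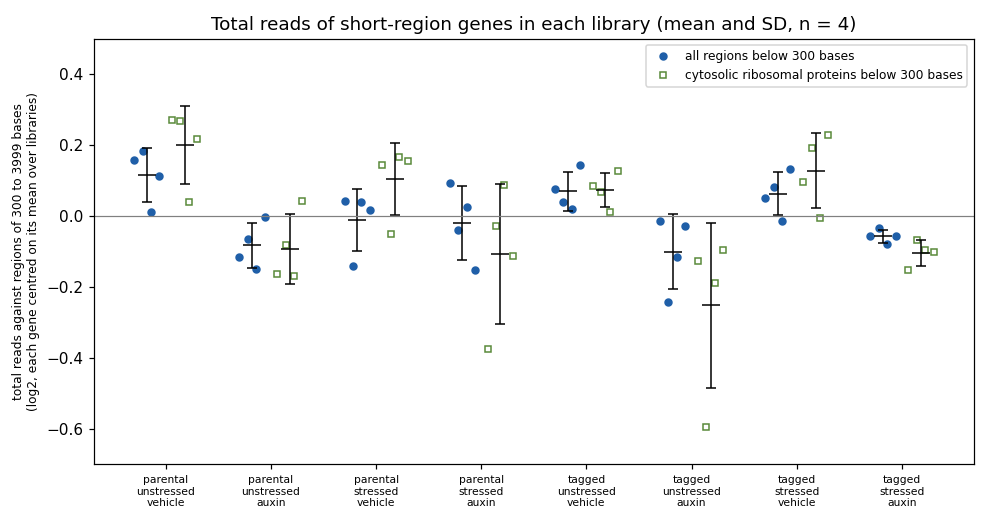
Log2 gap in total reads between short-region genes and genes of 300 to under 4000 bases (vertical axis, each gene centred on its mean over the 32 libraries) in each library, by group (horizontal axis). Dots show all short-region genes and squares the cytosolic ribosomal proteins; the auxin-treated wells lie lower in the unstressed groups of both lines and in the stressed tagged cells.

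The gap of the ribosomal proteins alone differed by -0.29 with auxin in unstressed parental (wells overlapping), -0.32 in unstressed tagged, -0.23 in stressed tagged and -0.21 in stressed parental cells (wells overlapping, -0.12 without the smallest library). Of the 4 auxin comparisons, single genes passed in that of unstressed parental cells, where 10 of 56 fell, among them RPS3A (-0.73) and RPS15A (-0.68), and the list medians were -0.28 there, -0.34 in unstressed tagged, -0.22 in stressed tagged and -0.18 in stressed parental cells. In unstressed parental cells 2.32% of all genes passed as lower. Without the smallest library 29 fell in unstressed parental and 33 in unstressed tagged cells, with 3 and 0 higher, and 4 and 0 fell in stressed tagged and parental cells. With only the compared libraries 26, 33, 25 and 0 fell in the order unstressed parental, unstressed tagged, stressed tagged and stressed parental. Of all genes 15.4%, 19.8%, 12.4% and 0% passed there in either direction. Oxidative phosphorylation followed, with 9 lower and 1 higher of 53 in unstressed parental cells (median -0.30; 29 lower and 6 higher without the smallest library), and of 31 mitochondrial ribosomal proteins 4 were lower and 4 higher (median -0.25; 15 and 7 without it). For the fits without the smallest library the share over all genes is not given here.

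Gene by gene, auxin changed the totals of 51 short-region genes upward and 109 downward in unstressed parental cells (12.2%), where 7.13% of all genes passed (4.81% higher, 2.32% lower) and 7.98% of the comparison genes. In unstressed tagged cells 4 rose and 11 fell (1.14%), where 0.681% passed (0.394% higher, 0.287% lower). The median change of short-region genes was -0.20 and -0.18, against -0.01 and -0.00 for all genes. In the tagged cells THOC7, a subunit of the export complex THO, and the catenin-like CTNNAL1 rose by 0.92 ± 0.21 and 0.93 ± 0.21, and PFDN6, a prefoldin subunit, and LIG1, a DNA ligase of replication, fell, with -0.86 and -0.64 on the log2 scale; all 4 calls were lost without tagged unstressed auxin replicate 2 (edgeR adjusted p = 0.167 to 0.278). For none of these 4 did the difference of the auxin effect between the lines pass (smallest edgeR adjusted p of any short-region gene 0.200). In parental cells POLD1, the catalytic subunit of DNA polymerase delta, had -0.85 ± 0.15 (edgeR adjusted p = 0.00574). The parental count was 583 without the smallest library, 21, 96, 15, 27, 12 and 56 without unstressed auxin replicates 1, 2 and 3 and unstressed vehicle replicates 1, 2 and 4, 277 without unstressed vehicle replicate 3, and 407 with only the compared libraries. The tagged count was 447 with only the compared libraries, 374 without the smallest library, 44 without unstressed auxin replicate 1, 3 without unstressed vehicle replicate 3, and 0 without unstressed auxin replicates 2 or 3 or unstressed vehicle replicates 1, 2 or 4. With only the compared libraries 15.4% and 19.8% of all genes passed in parental and tagged cells. For the fits without 1 library the share over all genes is not given, so those counts describe no trait of short-region genes.

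GSTP1 (NM_000852.3, chr11:67583812-67586653, region of 76 bases), a glutathione transferase, fell with auxin in tagged cells. Its totals were 1772, 1581, 1635 and 2027 CPM with vehicle and 1285, 734, 1159 and 1280.3 with auxin. All auxin wells were lower, with replicate 2 far below the rest, and the log2 change was -0.65 ± 0.15 (edgeR adjusted p = 0.0431). Without that replicate it was -0.50 (edgeR adjusted p = 0.277), and the call was also lost without auxin replicate 3 or any of the vehicle replicates (edgeR adjusted p = 0.0579 to 0.195). The difference of the auxin effect from that in unstressed parental cells did not pass for GSTP1. Its smallest edgeR adjusted p over all short-region genes was 0.200, so the fall was not shown to be particular to the tagged line.

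In the stressed cells auxin changed 0 short-region totals in either line (edgeR), where 0.0179% of all genes passed in each; at an unadjusted p below 0.05 there were 201 in tagged and 292 in parental cells, and DESeq2 called 4 and 42. With DESeq2 0.278% and 2.40% of all genes passed. The edgeR count was 37 in tagged cells without the smallest library and 297 with only the compared libraries, and 39, 28 and 163 in parental cells without stressed auxin replicates 2, 3 and 4. In tagged cells 12.4% of all genes passed with only the compared libraries. The difference of the auxin effect between tagged and parental cells, which bears on the degron, passed for 0 short-region genes without stress and for 0 with it (edgeR), where 0.0179% and 0% of all genes passed; 94 and 397 had an unadjusted p below 0.05, DESeq2 called 5 and 11 (0.260% and 0.788% of all genes), and edgeR with the main axis among wells of a group as a covariate 33 and 110. That axis comes from the same totals, so this fit removes variation among wells by construction and is no independent check. With the smallest library the axis had a mean of -1.93 in stressed auxin-treated parental cells, so there it is not centred. Without the smallest library the difference between lines passed for 12 in the unstressed cells, and without parental stressed auxin replicate 4 for 194 in the stressed cells. For the fits without 1 library and the fit with the axis the share over all genes is not given here.

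Few labelled shares passed with auxin. No short-region gene passed in unstressed tagged, stressed tagged or stressed parental cells (edgeR; 91, 90 and 66 at an unadjusted p below 0.05), where 0% of all genes passed in each. In unstressed parental cells 4 of 1198 had a lower share (0.334%), where 0.212% of all genes passed, 0% higher and 0.212% lower. These were NDUFB3, WRAP73, METTL17 and COX17, the last 2 named after their values were seen because their wells overlapped. The count was 2, 1 and 8 without unstressed auxin replicates 1, 3 and 4, 2, 2, 15 and 0 without unstressed vehicle replicates 1, 2, 3 and 4, and 2 with the size factors of DESeq2. With those size factors 0.145% of all genes passed, and for the fits without 1 replicate that share is not given here. Without centring, where the median of all genes was -0.16 in unstressed and -0.20 in stressed tagged cells and -0.11 in unstressed and stressed parental cells, the higher and lower calls were 0 and 2, 0 and 2, 0 and 5, and 0 and 0. Over all 8951 genes they were 0 and 5, 0 and 8, 0 and 29, and 0 and 0. The auxin effect on shares differed between the lines for 0 short-region genes without and 0 with stress (edgeR; 67 and 88 at an unadjusted p below 0.05), where 0% of all genes passed.

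NDUFB3 (NM_001257102.1, chr2:201072001-201085750, region of 135 bases), a complex I subunit, is the clearest of these and shows how few reads stand behind a share. In unstressed parental wells its total was 5.1, 4.77, 20.4 and 7.32 CPM with vehicle and 80.5, 39.1, 89.6 and 20.3 with auxin. Its share was 62.5, 62.5, 25.6 and 66.7% with vehicle and 9.8, 12.2, 9.38 and 16.4% with auxin. The first vehicle well counted 10 labelled of 16 reads, a 95% Wilson interval of 38.6% to 81.5% for counting error alone. The vehicle wells all had higher shares, and their totals were lower except in 1 well that was level with the lowest auxin well, with changes of -2.73 ± 0.52 for the share and 2.57 ± 0.58 for the total (edgeR adjusted p = 0.00379 and 0.0122), and the share call was lost without vehicle replicate 4 (edgeR adjusted p = 0.0855). With vehicle its share was lower in stressed than in unstressed parental cells, with a log2 change of -1.94 ± 0.51 (edgeR adjusted p = 0.00915, or 0.0852 without unstressed vehicle replicate 4). That comparison uses the same unstressed vehicle wells, so it is no second observation. With auxin the stressed parental wells had 0% (0 of 6 reads, in the smallest library), 7.34, 31.0 and 11.5%, overlapping the unstressed ones.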

How the data were processed

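HCT116 SLAM-seq 3′ end libraries of 8 groups with 4 wells each were analysed. The deposited files give, per the file headers, whole-number counts of reads, labelled reads, covered T positions and conversions for each of 95582 transcripts. They also hold CPM values and a conversion fraction that the authors deposited, which were not used here. Per the names of the deposited files, reads were trimmed and then mapped, filtered, counted and collapsed with Slamdunk; hg38 is the build per the submitters' processing notes, and the version, thresholds and annotation are not given in the sources used here. Region length and T content stand in the deposited files, per the file headers.

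Of 40767 NM transcripts 40002 matched a gene symbol, and the transcript with the most reads stood for each of 18791 genes; 72 genes with counts identical to another gene were left out, 3 of them short. Totals were tested with edgeR 4.0.16 in R 4.3.3 (quasi-likelihood F-test, TMM, filterByExpr, 1 coefficient per group over all 32 libraries, Benjamini-Hochberg over 11167 genes, threshold 0.05). Labelled shares were tested in the same way on labelled and other reads of each library with a term per library over 8951 genes. Both tests were checked on simulated data: totals changed by 1 or 2 on the log2 scale were recovered at 100% over 11013 genes for the parental stress comparison. The simulated totals had the same spread for every gene and no axis of variation shared among genes, so recovery in the real libraries can be lower. HSP90B1 and HSPA8 changed by more than 1 in tagged cells with vehicle and did not pass. Medians, gaps and motif searches used pandas 2.3.3, numpy 2.4.6 and scipy 1.17.1, and DESeq2 1.42.0 was an alternative. The members and gene lists were chosen with earlier results of these data known. The genes named by rule are those past the threshold without overlap between wells, up to 10 rises and 10 falls for stress with vehicle and up to 5 otherwise, passing members of the stress and secretory lists, the 5 highest and 5 lowest shares, and the 3 most read genes. Other calls were named outside this rule. Among them are those of proteasome subunits other than PSMD2, RPS3A, RPS15A, S100A11, S100A6 and MT2A, and of some genes called in all 4 stress comparisons. Alternatives were other normalizations, filters, length limits and fits; leaving out the smallest library in comparisons that do not hold it was added after seeing the data. The labels state no pairing and same-numbered wells were not alike throughout, so no block was used in the main fits. In the labels of tagged unstressed vehicle replicates 1 and 2 the name of the tagged protein is repeated.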

Additional observations from a re-analysis of the deposited data

Results flagged for a closer look

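In 176 sets of 4 wells (8 groups for the gap measures and the genes shown), the highest or lowest well was compared with the rest by Dixon's criterion, and 18 stood apart; chance picks about 1 in 20 groups. None of these values was explained by a test.

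The smallest library, stressed auxin-treated parental replicate 1, gave 4 of them: its log2 gap in labelled share was -0.977, its covered T per read in short regions 15.7, its DDIT3 total 497 CPM and its PPP1R15A total 24.2 CPM. Other gaps apart from their group were a gap in labelled share of -0.843 in stressed tagged cells with vehicle, one of -0.933 in stressed tagged cells with auxin, and a gap in total reads of -0.141 in stressed parental cells with vehicle. Among totals, 1 well each stood apart for ATF4 in unstressed tagged cells with vehicle (820.5 CPM), HSP90B1 in stressed parental cells with vehicle (1078 CPM) and NDUFB3 in unstressed parental cells with vehicle (20.4 CPM). Among shares, NUCB2 had a high well of 7.55% in unstressed and one of 36.1% in stressed tagged cells with vehicle, and HSP90B1 one of 12.9% in unstressed parental cells with vehicle. ASNS had a high well of 5.53% in unstressed parental cells with auxin and a low one of 11.2% in stressed parental cells with vehicle. PPP1R15A had a low well of 43.8% in stressed tagged cells with vehicle. NDUFB3 had wells apart at 25.6% in unstressed parental cells with vehicle and 23.3% in stressed tagged cells with auxin.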

How the results depend on the processing

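The 205 gene calls picked by the naming rule given above were followed over the settings tried. None of them changed its direction, and 128 passed under all settings. Calls named outside that rule were not counted here. Fitting only the compared libraries gave 266, 77, 12 and 108 short-region genes called in total reads for stress (parental and tagged with vehicle, then with auxin), 447, 297 and 407 for auxin in unstressed tagged, stressed tagged and unstressed parental cells, 7 for the unstressed difference between lines, and 3 for shares with auxin in unstressed tagged cells. Over all genes the shares that passed were 20.2%, 7.37%, 1.09% and 8.99%, then 19.8%, 12.4% and 15.4%, then 0.311%, and 0.121%. With the main axis of variation within groups as a covariate the counts of total reads were 553, 88 and 118 for stress (parental and tagged with vehicle, tagged with auxin), 502, 294, 619 and 1 for auxin (unstressed and stressed tagged, unstressed and stressed parental), and 33, 110 and 148 for the differences between lines. With it 35.0%, 8.49% and 9.53% of all genes passed for stress and 22.0%, 14.0%, 28.4% and 0.0537% for auxin. For the 33 and 110 the share over all genes is not given here. The axis comes from the same totals, so this fit removes variation among wells by construction and is no independent check. DESeq2 gave 244 for stress in parental cells with auxin, 93, 4, 249 and 42 for auxin in the same order, and 5 and 11 for the auxin differences between lines; without a filter on low counts 7 passed for auxin in unstressed tagged cells. Share calls without centring were 331, 171, 258 and 193 for stress and 2 and 2 for auxin in tagged cells, and 2 passed for auxin in unstressed parental cells with DESeq2's size factors. The cause of these changes was not tested, but fewer libraries set the spread where only the compared ones were fitted.

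The log2 gap in labelled share over all libraries was -0.76 as conversions per covered T, -1.04 below 200 bases, -0.81 with the limit 100 bases higher and -0.80 without ribosomal proteins. Its stress shifts with vehicle became 0.0556 in parental and -0.00723 in tagged cells as conversions per covered T, -0.0771 in parental cells below 200 bases and -0.0935 there with a mean of at least 200 reads. In parental cells with auxin they became -0.0318, -0.12 and -0.123 under the same 3 settings. The auxin shift was 0.0478 in unstressed tagged cells as conversions per covered T and 0.0111 in stressed parental cells with at least 200 reads.

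Leaving out 1 library at a time, the counts for total reads ran from 48 to 475, 27 to 80, 83 to 342 and 27 to 98 for stress, 0 to 374, 0 to 37, 12 to 583 and 0 to 163 for auxin, and 0 to 12, 0 to 194 and 0 to 0 for the differences between lines. Those for shares ran from 98 to 131, 88 to 114, 102 to 117 and 89 to 124 for stress, 0 to 15 for auxin in unstressed parental cells and 0 to 1 for the stress difference between lines, and were 0 in the others. The share over all genes is not given beside these counts, so they describe no trait of short-region genes. The gap ran from -0.850 to -0.846, and its shifts from -0.015 to 0.004, -0.064 to -0.036, -0.097 to -0.049 and -0.045 to -0.016 for stress and from -0.018 to 0.011, 0.003 to 0.031, 0.030 to 0.058 and -0.050 to -0.004 for auxin.

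Same-numbered wells did not deviate together throughout: their correlations ran from -0.495 to 0.542, with 11 of 32 pairs above 0.1 and 10 wells best matched by their own number. They ran from 0.02 to 0.365 for auxin in tagged cells, and from -0.495 to 0.026 for stress in parental cells with vehicle. A weak pairing in some comparisons is therefore not excluded. With a replicate block the counts were 136, 32, 130, 42, 12, 0, 186 and 0 for total reads and 128, 111, 124, 114, 0, 0, 6 and 0 for shares.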

Other observations

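Among the 38 short-region genes whose relative labelled share was higher in all 4 stress comparisons, several lie outside the stress and secretory lists; they are named here after their values were seen. TUBB4B, whose total fell in parental cells, went from 13.5 ± 0.539% to 17 ± 1.22% labelled in parental and from 12.9 ± 1.11% to 17.5 ± 2.27% in tagged cells with vehicle, relative log2 changes of 0.72 ± 0.09 and 0.77 ± 0.09 (edgeR adjusted p = 2.04e-10 and 4.05e-11). The alpha-tubulin TUBA1C changed by 0.54 ± 0.08 and 0.44 ± 0.09, calls that were lost without centring on the typical gene (edgeR adjusted p = 0.11 and 0.228). HSPA8 changed by 1.16 ± 0.24 and 1.33 ± 0.27. Of the epithelial markers KRT18 changed by 0.86 ± 0.11 and 0.78 ± 0.12, and the membrane-binding ANXA1 by 1.01 ± 0.16 and 0.86 ± 0.17. TMSB10, an actin monomer binder, changed by 1.14 ± 0.09 and 1.23 ± 0.09.

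Among the 7 with a lower relative share in all 4, the histone gene H4C3 went from 15.3 ± 0.716% to 10.1 ± 1.12% in parental and from 14.9 ± 1.08% to 10.5 ± 0.438% in tagged cells (-0.36 ± 0.08 and -0.33 ± 0.08). PSMB6, a catalytic subunit of the proteasome, changed by -0.63 ± 0.14 and -0.61 ± 0.15.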
